A study of Homo sapiens with 12 samples.

Results

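The proteasome is the large protease that degrades proteins tagged with ubiquitin, and its genes were followed in IMR90 fibroblasts with and without oncogenic RAS and with altered DOT1L, the methyltransferase of lysine 79 of histone H3. Members were the protein-coding genes whose symbol is PSM, a letter from A to G and a number. The rule gave 48 genes, and 47 of them had a row among the 48162 gene IDs of the count files, since the ID of PSMB3 was not analysed here. The 47 genes comprised 8 core alpha, 6 core beta, 4 immune beta, 6 ATPase and 11 other 19S subunits, 5 other activators or inhibitors and 7 assembly chaperones.

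IMR90 is a normal fibroblast line from human lung, and its messenger RNA was sequenced in 12 libraries, 3 for each of 4 groups. Control cells carried the empty pBABE vector, RAS cells carried pBABE with HRAS G12V, RAS/shDOT1L cells carried the same oncogene and a pLKO.1 hairpin RNA against DOT1L, and DOT1L overexpressing (OE) cells received the vector MSCB-hDot1lwt. Culture was in 2% oxygen, and drug selection lasted 4 days, using 3 µg/mL puromycin or, in DOT1L OE only, 1 µg/mL blasticidin. The labels name neither a control hairpin for RAS nor an empty MSCB vector for DOT1L OE. The study lists more than 1 hairpin against DOT1L, and the sample titles do not say which was used here. Effects of DOT1L loss and of hairpin delivery cannot be told apart, nor can those of DOT1L gain, vector and drug. Figure legends of the study describe its RNA-seq libraries as technical replicates of a single experiment and the methods as biological ones. The p-values therefore cover only how far these libraries differ, and that spread may be technical.

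Library totals ran from 16128055 to 19503457 counts, and proteasome genes held 0.492% to 0.669% of them. Against control, DOT1L mRNA was 2.66-fold higher in RAS and 6.38-fold higher in DOT1L OE, and the hairpin libraries held it 7.58-fold below RAS. HRAS rose 5.85-fold in RAS, and the hairpin libraries were 1.80-fold below RAS. In every result given below for the knockdown, DOT1L loss and this lower HRAS cannot be told apart. All 10 fibroblast markers were expressed in every group, and their summed level lay between 24629 and 25025 CPM in control, which is the count per 1e6 counts of the library, summed over genes that passed the filter, after TMM scaling by factors of 0.903 to 1.10, and between 17193 and 19113 CPM in the other libraries. Of 7 immune cell markers, ITGAM and CD68 were at 0 and the sum never passed 3.58 CPM. The 4 epithelial markers summed to at most 4.21 CPM, and of 3 endothelial markers TEK alone passed 2 CPM, at 22.1 to 136 CPM by library. The part of these marker shifts in the results below was not tested.

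The proteasome has a 20S core, a barrel of stacked alpha and beta rings whose beta subunits PSMB5, PSMB6 and PSMB7 cut peptide bonds. A 19S regulator with a ring of ATPases recognises, unfolds and feeds in tagged proteins, and other caps such as the 11S activator open the barrel. When cells meet interferon, PSMB8, PSMB9 and PSMB10 can take the places of PSMB5, PSMB6 and PSMB7 to form the immunoproteasome, which shapes peptides for display to T cells. When proteasome activity is short, the transcription factor NFE2L1 raises proteasome genes together through antioxidant response elements.

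In control cells the most abundant member per transcript length was PSMD2, a large scaffold subunit of the 19S base. It stood at 256 CPM per kb of transcript ± 7.55 (SD, n = 3). The catalytic core genes came next, with PSMB5 at 193 ± 2.82 CPM per kb, PSMB6 at 181 ± 5.38 and PSMB7 at 165 ± 6.10. The immune counterparts were far lower on the same scale, with PSMB8 at 20.2 ± 0.8001, PSMB10 at 4.46 ± 1.62 and PSMB9 at 3.03 ± 0.735 CPM per kb. Leaving out the testis form PSMA8, which stood at 0, among the 24 core and 19S genes that no other gene of the files overlaps, levels ran from 11.3 CPM per kb for PSMD12 to 256 for PSMD2, with a median of 80.3.

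Several low values went with gene overlap. The alpha genes PSMA1, PSMA2 and PSMA6 stood at 2.85, 1.04 and 0.696 CPM per kb in control, while the 4 alpha genes other than PSMA8 without an overlapping gene ran from 22.5 to 155 CPM per kb. Another annotated gene on the same strand covers 67.0% of the PSMA1 transcript, 100% of PSMA2 and 81.4% of PSMA6, and the study likens its counting to a program that by default discards reads lying in 2 genes. The same kind of overlap covers 56.1% of PSMB10 and 28.8% of PSMD9. Genes on the opposite strand cover 83.2% of PSMC1 and 51.6% of PSMD7, and the strand setting of the counts is not given in the sources used here. The part of overlap in these levels was not tested, and the 5 genes with same-strand overlap are reported as uncertain.

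**Figure D1:**
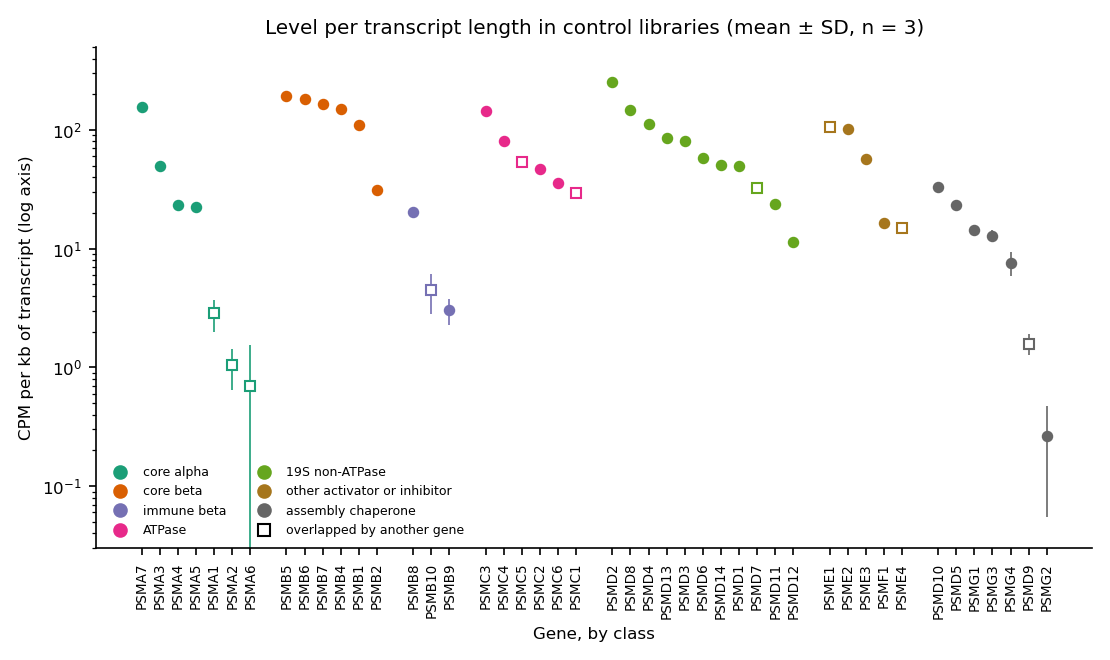
Level of each proteasome gene in the 3 control libraries, as mean CPM per kb of transcript on a log axis with bars of 1 SD, by class. Open squares mark genes that another gene of the files overlaps, and PSMA1, PSMA2 and PSMA6 lie below all other core alpha genes. The lower bar of PSMA6, at 0.696 CPM per kb, runs off the axis, and genes without a count in control are not drawn.

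Of the 47 genes, 44 passed the filter on low counts in the comparisons of RAS and RAS/shDOT1L, and 43 in DOT1L OE against control, where PSMA6 also failed it. PSMA8, a testis form of an alpha subunit, had 1 count in all 12 libraries. PSMB11, the thymus-specific beta subunit, had 16 counts in 1 RAS/shDOT1L library and none elsewhere. The chaperone PSMG2 had at most 10 counts in a library. A count of 0 allows a level of up to 0.196 CPM in any library, for counting error only.

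Under TMM scaling, oncogenic RAS went with higher mRNA for most tested proteasome genes. Of 44 tested, 25 (56.8%) rose and 7 (15.9%) fell against control, beside 31.9% of all 13554 genes tested that were higher and 32% that were lower (edgeR quasi-likelihood test, adjusted p under 0.05 throughout). The median log2 change was 0.30 over the members and −0.04 over all genes. In a test against a 1.5-fold change, 9 members (20.5%) were higher and 0 lower, beside 13.4% and 13.6% of all genes. The summed level of all members was 4812 ± 65.3 CPM in control and 6703 ± 43.4 CPM in RAS (SD, n = 3). As a share of unscaled library totals they held 0.492% to 0.505% in control and 0.604% to 0.609% in RAS. Since these are bulk samples, more cells with a transcript and more RNA per cell cannot be told apart.

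The split in RAS depended on 2 processing choices. With libraries scaled by their totals alone, the median of all genes moved to −0.24 and the members split into 16 higher and 14 lower, beside 24.0% and 41.1% of all genes. The distance of the members' median from that of all genes was 0.35 under either scaling. That likeness is built in, since a change of scaling shifts all genes of a comparison nearly alike. With an offset for transcript GC content, 26 members were higher and 0 lower, beside 27.2% and 25.9% of all genes. The offset takes out a trend with GC content whatever its cause.

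Knockdown of DOT1L in RAS cells did not bring proteasome mRNA down as a whole. Of 44 tested genes, 22 (50%) were higher and 12 (27.3%) lower in RAS/shDOT1L than in RAS, beside 26.3% and 26.4% of all 13398 genes, so the share that fell was near that of all genes. The median log2 change was 0.19 over the members and 0.03 over all genes. Over 1.5-fold, 3 members (6.82%) were higher and 0 lower, beside 8.34% and 8.62% of all genes. With the GC offset the counts were 17 higher and 8 lower, beside 22.8% and 23.7% of all genes. With library totals as the only scaling they were 27 and 11, beside 29.7% and 23.4%. The summed member level was 6907 ± 33.1 CPM, against the 6703 ± 43.4 CPM of RAS, or 0.660% to 0.669% of unscaled totals.

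In DOT1L overexpressing cells, 22 of 43 tested genes (51.2%) were higher and 4 (9.30%) lower than in control, beside 29.9% and 29.9% of all 13660 genes. The median log2 change was 0.20 over the members and 0.01 over all genes. Over 1.5-fold, 4 members (9.30%) were higher and 0 lower, beside 11.2% and 9.58% of all genes. Scaled by library totals alone, 30 members were higher and 3 lower, beside 34.3% and 25.7% of all genes. The members' median log2 change was then 0.27, against 0.11 in RAS under the same scaling. By this median, whether RAS or DOT1L OE stood further from control depended on the scaling. The distance of the members' median from that of all genes was 0.19 in DOT1L OE and 0.35 in RAS under either scaling. It cannot show an effect of scaling, which shifts all genes of a comparison nearly alike. The summed level was 5604 ± 134 CPM, above the 4812 CPM of control and below the 6703 CPM of RAS, while as a share of unscaled totals DOT1L OE held 0.603% to 0.633% and overlapped RAS.

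In RAS/shDOT1L against control, 31 of 44 genes (70.5%) were higher and 2 (4.55%) lower than in control, beside 27.9% and 27.6% of all 13519 genes, with a median log2 change of 0.48 beside −0.01 over all genes. Over 1.5-fold, 9 (20.5%) were higher and 0 lower, beside 9.44% and 9.68%. With library totals as the only scaling the members split into 29 higher and 4 lower, and all genes into 22.5% and 33.7%. Comparisons against control share its 3 libraries and those with RAS share the RAS libraries, so their values are set side by side below without a test of their likeness. Absence of overlap between the groups compared was common. It held for 67.8% of all tested genes in RAS against control and 58.7% in RAS/shDOT1L against RAS. The shares were 64.1% in DOT1L OE against control and 61.8% in RAS/shDOT1L against control.

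**Figure D2:**
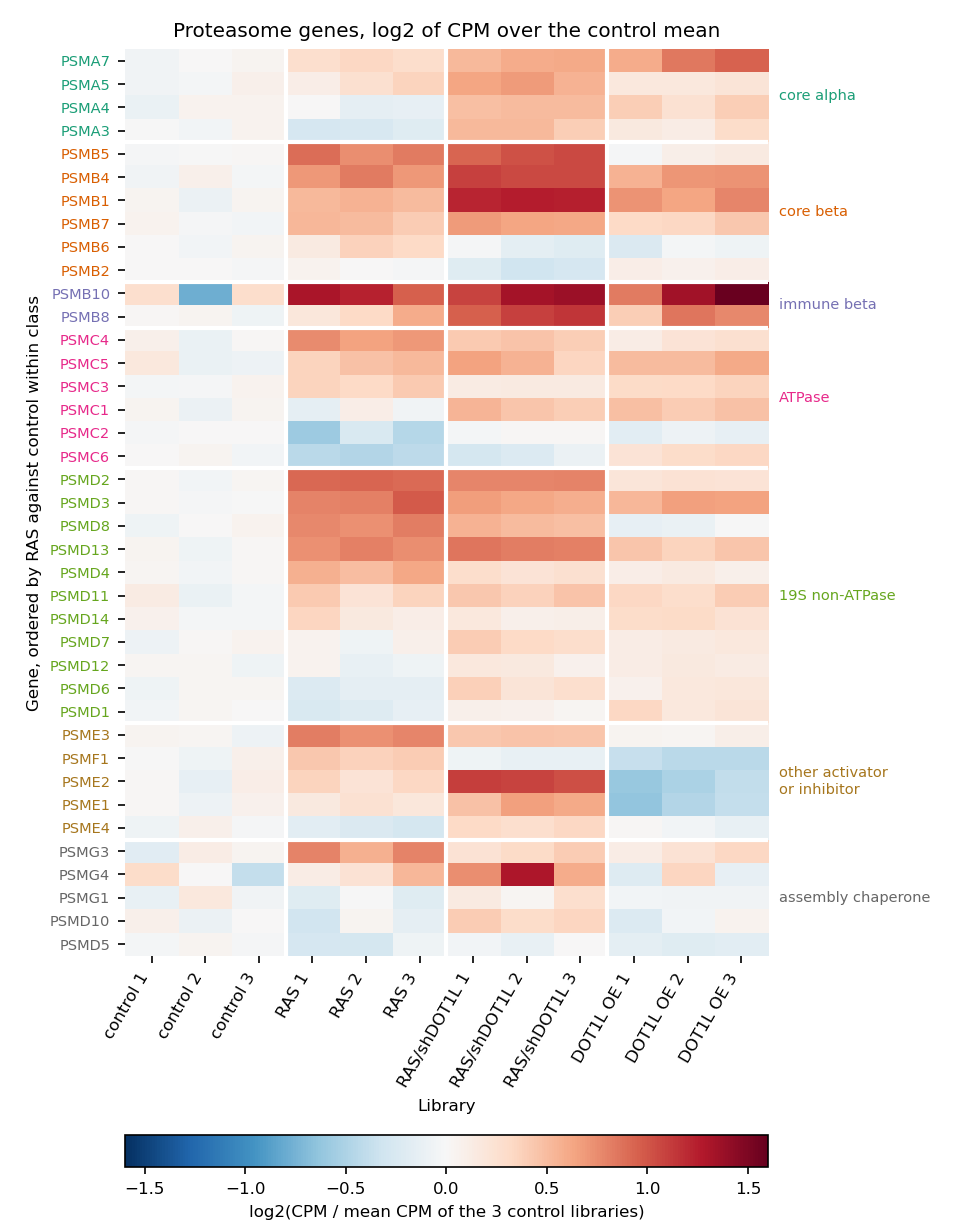
Log2 of each library's CPM over the mean CPM of the 3 control libraries, for the 39 tested members with at least 10 CPM in some library, by class and ordered by the change in RAS. Red is above control and blue below, with values from −0.78 to 1.58. PSMD2, PSMD3, PSMD8 and PSMB5 are red in all RAS and RAS/shDOT1L libraries, PSMC6 is blue in both, and PSME1, PSME2 and PSMF1 are blue in all DOT1L OE libraries.

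The core beta genes rose almost as a class in RAS, where 5 of 6 were higher (83.3%, beside 31.9% of all genes). PSMB2, at a log2 change of 0.01 ± 0.05 (SE), did not pass the test. PSMB5, which carries the chymotrypsin-like activity and is the main target of clinical proteasome inhibitors, had 199.5, 199.8 and 205 CPM in control, 199, 214 and 223 in DOT1L OE, 376, 338 and 359.7 in RAS and 385, 409.5 and 419 in RAS/shDOT1L. Every library with RAS was thus above every library without it. PSMB5 rose by a log2 change of 0.83 ± 0.05 in RAS (adjusted p = 8.43e-17) and by a further 0.19 ± 0.05 with the knockdown (adjusted p = 0.00165). In DOT1L OE its change was 0.08 ± 0.05 (adjusted p = 0.188).

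PSMB6, the caspase-like subunit, had 149, 144 and 153 CPM in control, 127, 146 and 142 in DOT1L OE, 165, 193 and 187 in RAS and 147, 134 and 129.7 in RAS/shDOT1L. It was high in RAS alone, where it rose by 0.28 ± 0.06 on the log2 scale (adjusted p = 5.63e-05), and fell by 0.39 with the knockdown (SE 0.07, adjusted p = 7.13e-06). With the GC offset its change in RAS was −0.02 (adjusted p = 0.762). PSMB7, the trypsin-like subunit, had 169, 160.4 and 158 CPM in control, 203, 205 and 218 in DOT1L OE, 235, 231 and 215 in RAS and 260.1, 251 and 250.1 in RAS/shDOT1L. It was above control in each other group, with log2 changes of 0.48 ± 0.05 in RAS and 0.37 ± 0.05 in DOT1L OE.

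PSMB1, a structural beta subunit, moved up at each step. It had 100.2, 91.1 and 101 CPM in control, 159.5, 151 and 167 in DOT1L OE, 139, 144 and 139 in RAS and 227, 233 and 229.8 in RAS/shDOT1L, and no library of one group overlapped another group. Its log2 changes were 0.53 ± 0.06 in RAS (adjusted p = 2.58e-09), 0.73 ± 0.06 in RAS/shDOT1L against RAS (adjusted p = 5.94e-13) and 0.71 ± 0.06 in DOT1L OE (adjusted p = 2.58e-12). PSMB4, also structural, rose by 0.74 ± 0.05, 0.35 ± 0.05 and 0.67 ± 0.05 in the same comparisons. PSMB2 had 140, 140 and 138 CPM in control and 149, 145 and 149 in DOT1L OE. In RAS it had 144, 140 and 137 CPM, and in RAS/shDOT1L 122, 112 and 115. PSMB2 was lower in RAS/shDOT1L than in both RAS and control, by 0.25 on the log2 scale in each (adjusted p = 0.00115 and 0.000727).

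**Figure D3:**
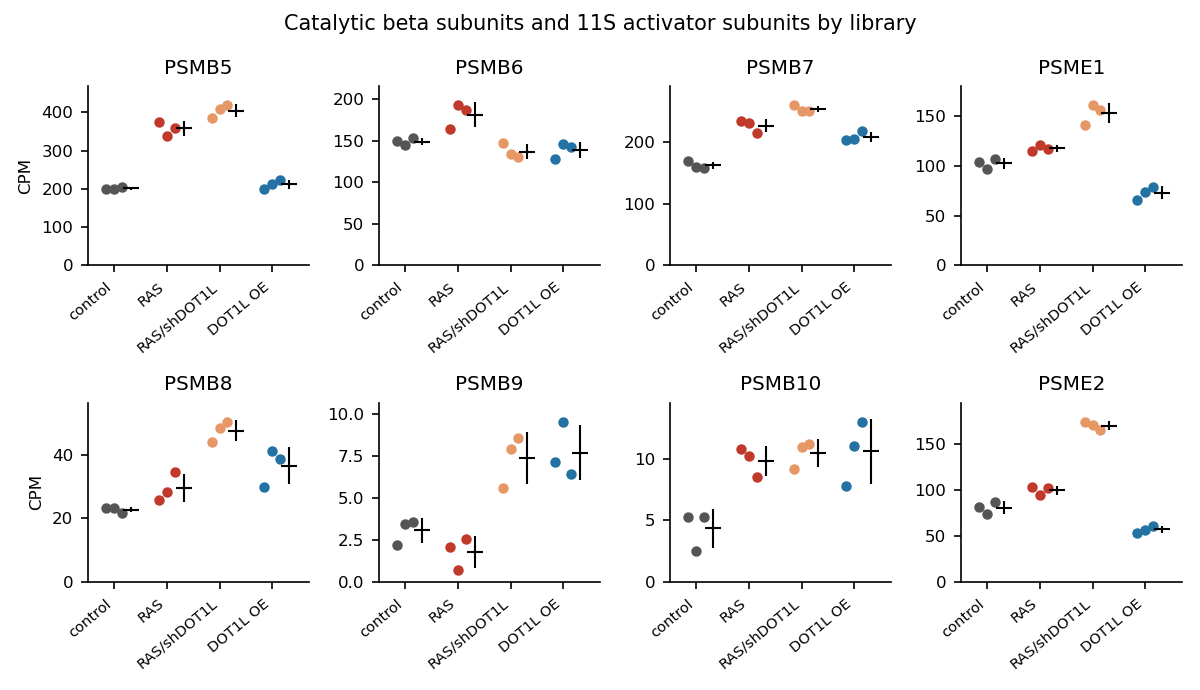
CPM in each library (points) with the mean and SD of each group (black bars, n = 3) for the constitutive catalytic genes PSMB5, PSMB6 and PSMB7, the immune genes PSMB8, PSMB9 and PSMB10 that replace them, and the 11S activator genes PSME1 and PSME2. PSMB5 is at 338 CPM or more wherever RAS is present and at most 223 CPM elsewhere, while PSME1 and PSME2 are highest in RAS/shDOT1L and lowest in DOT1L OE.

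The immune beta genes did not move as a block in RAS. PSMB8 had 23.1, 23.4 and 21.7 CPM in control, 30.0, 41.1 and 38.6 in DOT1L OE, 25.7, 28.4 and 34.4 in RAS and 44.05, 48.4 and 50.4 in RAS/shDOT1L. Its groups overlapped only between RAS and DOT1L OE. PSMB8 rose by 0.37 ± 0.12 in RAS (adjusted p = 0.00809), which was lost without the highest RAS library (log2 change 0.25, adjusted p = 0.0998) and with the GC offset (0.09, adjusted p = 0.561). It rose by 0.71 ± 0.11 with the knockdown (adjusted p = 2.43e-06) and by 0.69 ± 0.11 in DOT1L OE (adjusted p = 1.34e-06).

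PSMB9 had 2.22, 3.45 and 3.57 CPM in control, 7.15, 9.53 and 6.41 in DOT1L OE, 2.09, 0.727 and 2.55 in RAS and 5.61, 7.91 and 8.59 in RAS/shDOT1L, from 12 to 204 counts a library. Control and RAS overlapped, with a log2 change of −0.78 ± 0.43 (adjusted p = 0.109). The adjusted p was 0.0437 with library totals as scaling, 0.0394 in a fit over all 4 groups and 0.0479 without RAS library 3. RAS/shDOT1L and DOT1L OE lay above both, with a log2 change of 2.06 ± 0.36 against RAS (adjusted p = 1.01e-05) and of 1.32 ± 0.23 against control (adjusted p = 8.18e-06).

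PSMB10 had 5.27, 2.53 and 5.28 CPM in control, 7.79, 11.03 and 13.0 in DOT1L OE, 10.8, 10.2 and 8.49 in RAS and 9.20, 10.98 and 11.2 in RAS/shDOT1L. All 9 libraries outside control were above all 3 within it. Its log2 change was 1.17 ± 0.24 in RAS (adjusted p = 9.17e-05), 1.29 ± 0.22 in DOT1L OE (adjusted p = 8.13e-06) and 0.11 ± 0.19 in RAS/shDOT1L against RAS (adjusted p = 0.675). With the GC offset that last change was 0.48 (adjusted p = 0.0444). All values of PSMB10 are uncertain through its same-strand overlap.

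Per kb of transcript, each immune gene stayed well under its constitutive partner in every group. For PSMB10 this is uncertain, since another gene on the same strand overlaps it. PSMB8 stood at 10.5% ± 0.562 of PSMB5 in control, 16.0% ± 1.92 in DOT1L OE, 7.68% ± 1.27 in RAS and 10.9% ± 0.278 in RAS/shDOT1L (SD, n = 3). PSMB9 stood at 1.68% ± 0.410, 4.50% ± 0.819, 0.814% ± 0.442 and 4.41% ± 1.18 of PSMB6 in the same order. PSMB10 stood at 2.70% ± 0.967, 5.10% ± 1.11, 4.36% ± 0.339 and 4.16% ± 0.523 of PSMB7. The share of the immune form was therefore lowest in RAS for PSMB8 and PSMB9 and lowest in control for PSMB10, and no test was made of these ratios.

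The PA28 genes PSME1 and PSME2 encode the subunits of the 11S activator, an interferon-inducible cap, and changed in the same direction in each comparison under TMM scaling. PSME1 had 104, 96.6 and 107 CPM in control, 66.2, 74.0 and 79.1 in DOT1L OE, 115, 121 and 117 in RAS and 142, 161 and 156 in RAS/shDOT1L. PSME2 had 81.9, 74.0 and 87.4 CPM in control, 53.4, 57.1 and 61.6 in DOT1L OE, 103, 94.7 and 102 in RAS and 175, 171 and 166 in RAS/shDOT1L. The 4 groups did not overlap for either gene and stood in the order DOT1L OE, control, RAS, RAS/shDOT1L. In each comparison made, most tested genes did not overlap between the groups compared. The share of all genes with 4 separate groups was not computed, here or for PSMB1, PSMC6 and PSMD2.

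PSME2 changed by 0.30 ± 0.07 in RAS (adjusted p = 0.000300), 0.79 ± 0.06 in RAS/shDOT1L against RAS (adjusted p = 2.28e-12) and −0.50 ± 0.07 in DOT1L OE (adjusted p = 7.21e-07), all on the log2 scale. PSME1 changed by 0.20 ± 0.06 (adjusted p = 0.00607), 0.40 ± 0.07 (adjusted p = 4.07e-06) and −0.49 ± 0.07 (adjusted p = 2.55e-07). The rise of PSME2 in RAS lost its call with library totals as scaling (0.10, adjusted p = 0.186) and with the GC offset (0.16, adjusted p = 0.0548). The change of PSME1 in RAS was then −0.0024 (adjusted p = 0.974) and −0.011 (adjusted p = 0.895). In DOT1L OE the PA28 genes and the immune beta genes thus moved in opposite directions. There 3 of 3 tested immune beta genes were higher, beside 29.9% of all genes.

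Promoters are shown for these genes because PSME1 and PSME2 moved together and PSMB9 and PSMB10 did so in only some comparisons. Only PSMB10 was called in RAS and only PSMB9 with the knockdown, while both were higher in DOT1L OE and RAS/shDOT1L than in control. Each sequence is the 250 bases before the start site in RefSeq on GRCh38.p14, 5′ to 3′ on the strand of the gene, at chr14:24135944-24136193 (plus strand) for PSME1, chr14:24146611-24146860 (minus strand) for PSME2, chr16:67936851-67937100 (minus strand) for PSMB10 and chr6:32853942-32854191 (plus strand) for PSMB9. Capitals mark matches to the letters TGACNNNGC of the antioxidant response element or GAAANNGAA of the core of the interferon-stimulated response element, searched on both strands.
PSME1: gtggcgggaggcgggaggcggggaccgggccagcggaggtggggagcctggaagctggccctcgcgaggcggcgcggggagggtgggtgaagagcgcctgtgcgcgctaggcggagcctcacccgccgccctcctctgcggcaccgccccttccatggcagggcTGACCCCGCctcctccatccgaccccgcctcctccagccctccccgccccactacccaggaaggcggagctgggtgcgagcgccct
PSME2: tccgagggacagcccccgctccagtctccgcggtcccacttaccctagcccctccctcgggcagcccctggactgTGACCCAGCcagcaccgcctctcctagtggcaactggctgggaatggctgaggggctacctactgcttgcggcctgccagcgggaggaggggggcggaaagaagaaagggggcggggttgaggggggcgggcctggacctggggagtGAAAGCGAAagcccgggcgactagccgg
PSMB10: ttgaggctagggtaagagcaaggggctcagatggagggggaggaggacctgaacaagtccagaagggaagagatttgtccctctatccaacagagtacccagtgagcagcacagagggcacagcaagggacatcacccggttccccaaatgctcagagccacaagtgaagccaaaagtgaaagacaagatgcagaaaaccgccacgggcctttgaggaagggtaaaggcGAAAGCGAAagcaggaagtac
PSMB9: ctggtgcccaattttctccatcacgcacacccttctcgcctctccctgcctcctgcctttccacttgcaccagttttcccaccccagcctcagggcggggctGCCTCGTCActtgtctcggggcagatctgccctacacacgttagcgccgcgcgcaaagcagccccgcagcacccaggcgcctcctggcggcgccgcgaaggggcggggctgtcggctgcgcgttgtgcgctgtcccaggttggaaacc
PSME2 and PSMB10 share the 9 letters GAAAGCGAA, which start 28 and 21 bases before the start site. PSME1 has the same letters on the other strand just after its start site, outside the stretch shown. Over windows of 300 bases around the start site, GAAANNGAA was found for 8 of the 42 members in the promoter table (19.05%), PSMA4, PSMB4, PSMB8, PSMB10, PSMC2, PSME1, PSME2 and PSMG4, and for 9.86% of all genes in it. TGACNNNGC was found for 15 of the 42 (35.7%) and for 16.1% of all genes. These are matches of letters, with no test and no measure of binding.

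The other caps and the inhibitor split differently. PSME3, the nuclear PA28 gamma activator, rose by 0.78 ± 0.05 in RAS (adjusted p = 1.22e-15), fell by 0.32 with the knockdown and changed by 0.06 ± 0.05 in DOT1L OE (adjusted p = 0.324). PSMF1, an inhibitor of the 20S core, had 135, 129 and 143 CPM in control, 105, 100.1 and 100.2 in DOT1L OE, 182, 176 and 179 in RAS and 129, 124 and 124 in RAS/shDOT1L. It was high in RAS alone and fell by 0.49 on the log2 scale with the knockdown (SE 0.06, adjusted p = 1.99e-08) and by 0.41 in DOT1L OE (SE 0.06, adjusted p = 2.25e-07). PSME4, the PA200 activator, went the other way, falling by 0.23 in RAS (adjusted p = 0.00224) and rising by 0.55 ± 0.07 with the knockdown (adjusted p = 1.51e-08), and its change in RAS was 0.12 with the GC offset (adjusted p = 0.101).

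The core alpha genes form the gate of the barrel. In RAS, 2 of 7 tested rose and 1 fell (28.6% and 14.3%, beside 31.9% and 32% of all genes), so the share that rose was near that of all genes. With the knockdown 5 of 7 rose (71.4%, beside 26.3%), and in DOT1L OE 5 of 6 rose (83.3%, beside 29.9%). PSMA1, PSMA2 and, outside DOT1L OE, PSMA6 count among those tested and are uncertain through overlap. PSMA7 had 144, 149.5 and 154 CPM in control, 225, 267 and 285 in DOT1L OE, 180.2, 188 and 182 in RAS and 214, 224 and 227 in RAS/shDOT1L. Its largest log2 change was in DOT1L OE, at 0.80 ± 0.06 (adjusted p = 6.18e-13), beside 0.30 ± 0.05 in RAS. The RAS call was lost with library totals as scaling (0.1001, adjusted p = 0.0859) and with the GC offset (0.090, adjusted p = 0.138). PSMA3 had 46.7, 45.7 and 49.0 CPM in control, 52.5, 51.3 and 57.6 in DOT1L OE, 39.0, 39.5 and 41.3 in RAS and 67.7, 67.5 and 62.2 in RAS/shDOT1L. It was thus lowest in RAS and highest in RAS/shDOT1L.

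PSMA3 fell by 0.24 on the log2 scale in RAS (SE 0.09, adjusted p = 0.0185), lost that call without control library 3 (adjusted p = 0.0714) and was higher by 0.22 with the GC offset (adjusted p = 0.0360). It rose by 0.74 ± 0.09 with the knockdown (adjusted p = 1.83e-08). PSMA4 changed by −0.09 ± 0.07 in RAS (adjusted p = 0.248) and rose by 0.61 ± 0.07 with the knockdown and 0.35 ± 0.06 in DOT1L OE. PSMA5 rose in each, by 0.24 ± 0.07, 0.39 ± 0.07 and 0.19 ± 0.06, and each call could be lost. Its change in RAS was 0.046 with library totals as scaling (adjusted p = 0.570), with the knockdown it was 0.025 with the GC offset (adjusted p = 0.808), and in DOT1L OE it was 0.15 without control library 1 (adjusted p = 0.0720).

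The ATPases form the unfolding ring of the 19S base and split in RAS. There 3 of 6 were higher and 2 lower (50% and 33.3%, beside 31.9% and 32% of all genes). PSMC4, which the study used as 1 of 3 reference genes for quantitative PCR, had 149, 131 and 142 CPM in control, 152, 164 and 168 in DOT1L OE, 238, 220.1 and 229 in RAS and 188, 193 and 185 in RAS/shDOT1L. Its RAS and RAS/shDOT1L libraries overlapped neither each other nor the rest. PSMC4 rose by 0.70 ± 0.05 in RAS (1.63-fold, adjusted p = 3.08e-13), fell by 0.26 with the knockdown (SE 0.06, adjusted p = 0.000182) and rose by 0.20 ± 0.06 in DOT1L OE (adjusted p = 0.00249). PSMC3 and PSMC5 also rose in RAS, by 0.37 ± 0.05 and 0.45 ± 0.07, though with the GC offset PSMC3 changed by 0.012 (adjusted p = 0.844). The rise of PSMC4 in DOT1L OE lost its call with that offset (0.12, adjusted p = 0.0709).

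PSMC6 and PSMC2 were the ATPases that fell in RAS. PSMC6 had 77.6, 79.1 and 74.5 CPM in control, 89.4, 94.3 and 97.1 in DOT1L OE, 57.0, 55.5 and 57.9 in RAS and 63.6, 65.96 and 72.0 in RAS/shDOT1L, with no overlap between groups. PSMC2 had 125, 128 and 128 CPM in control, 113, 119.7 and 116 in DOT1L OE, 85.1, 108 and 92.2 in RAS and 124, 128 and 129 in RAS/shDOT1L. Every RAS library was below all others, though the highest, at 108 CPM, was near the lowest of DOT1L OE, at 113. PSMC6 fell by 0.44 in RAS (SE 0.07, adjusted p = 2.97e-06) and PSMC2 by 0.42 (SE 0.07, adjusted p = 2.34e-06), and with the GC offset the changes were 0.18 (adjusted p = 0.0338) and 0.12 (adjusted p = 0.137). With the knockdown PSMC2 rose by 0.44 ± 0.07 (adjusted p = 6.92e-06) and, with the GC offset, by 0.11 (adjusted p = 0.241). PSMC1 rose by 0.51 ± 0.07 with the knockdown and 0.46 ± 0.05 in DOT1L OE.

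The other 19S subunits held the largest rises in RAS among genes above 10 CPM. Of these subunits 7 of 11 were higher and 2 lower (63.6% and 18.2%, beside 31.9% and 32% of all genes). PSMD2 had 755, 721 and 761 CPM in control, 855, 873 and 865 in DOT1L OE, 1413, 1419 and 1398 in RAS and 1283, 1283 and 1296 in RAS/shDOT1L. Its 4 groups did not overlap. It rose by 0.92 ± 0.03 in RAS (1.89-fold, adjusted p = 1.41e-22), and its share of all member counts went from 15.5% ± 0.257 in control to 21.0% ± 0.294 in RAS, beside 15.4% ± 0.315 in DOT1L OE and 18.6% ± 0.190 in RAS/shDOT1L. Without PSMD2 the members still summed to 4066 ± 43.99 CPM in control, 4740 ± 130 in DOT1L OE, 5293 ± 54.0 in RAS and 5619 ± 39.4 in RAS/shDOT1L.

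PSMD3, a subunit of the 19S lid, had 175, 171 and 173 CPM in control, 250.4, 273 and 269 in DOT1L OE, 301, 303 and 341 in RAS and 275, 265 and 259 in RAS/shDOT1L. It was above control in each other group, by 0.87 ± 0.05 in RAS (adjusted p = 2.07e-16) and 0.62 ± 0.05 in DOT1L OE (adjusted p = 1.51e-12). PSMD8 and PSMD13, also of the lid, rose by 0.77 ± 0.04 and 0.76 ± 0.05 in RAS. In RAS/shDOT1L, PSMD8 was lower than in RAS by 0.24 (SE 0.05, adjusted p = 0.000121) and with the GC offset differed by 0.02 (adjusted p = 0.765), while PSMD13 changed by 0.09 ± 0.05 (adjusted p = 0.173). PSMD4, a ubiquitin receptor, fell by 0.28 with the knockdown (SE 0.06, adjusted p = 6.57e-05). PSMD1 and PSMD6, which had fallen by 0.19 and 0.17 in RAS, rose by 0.27 ± 0.06 and 0.47 ± 0.08 with the knockdown. With the GC offset the changes in RAS were 0.11 (adjusted p = 0.0818) and 0.047 (adjusted p = 0.607), and the change of PSMD1 with the knockdown was 0.061 (adjusted p = 0.437).

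**Figure D4:**
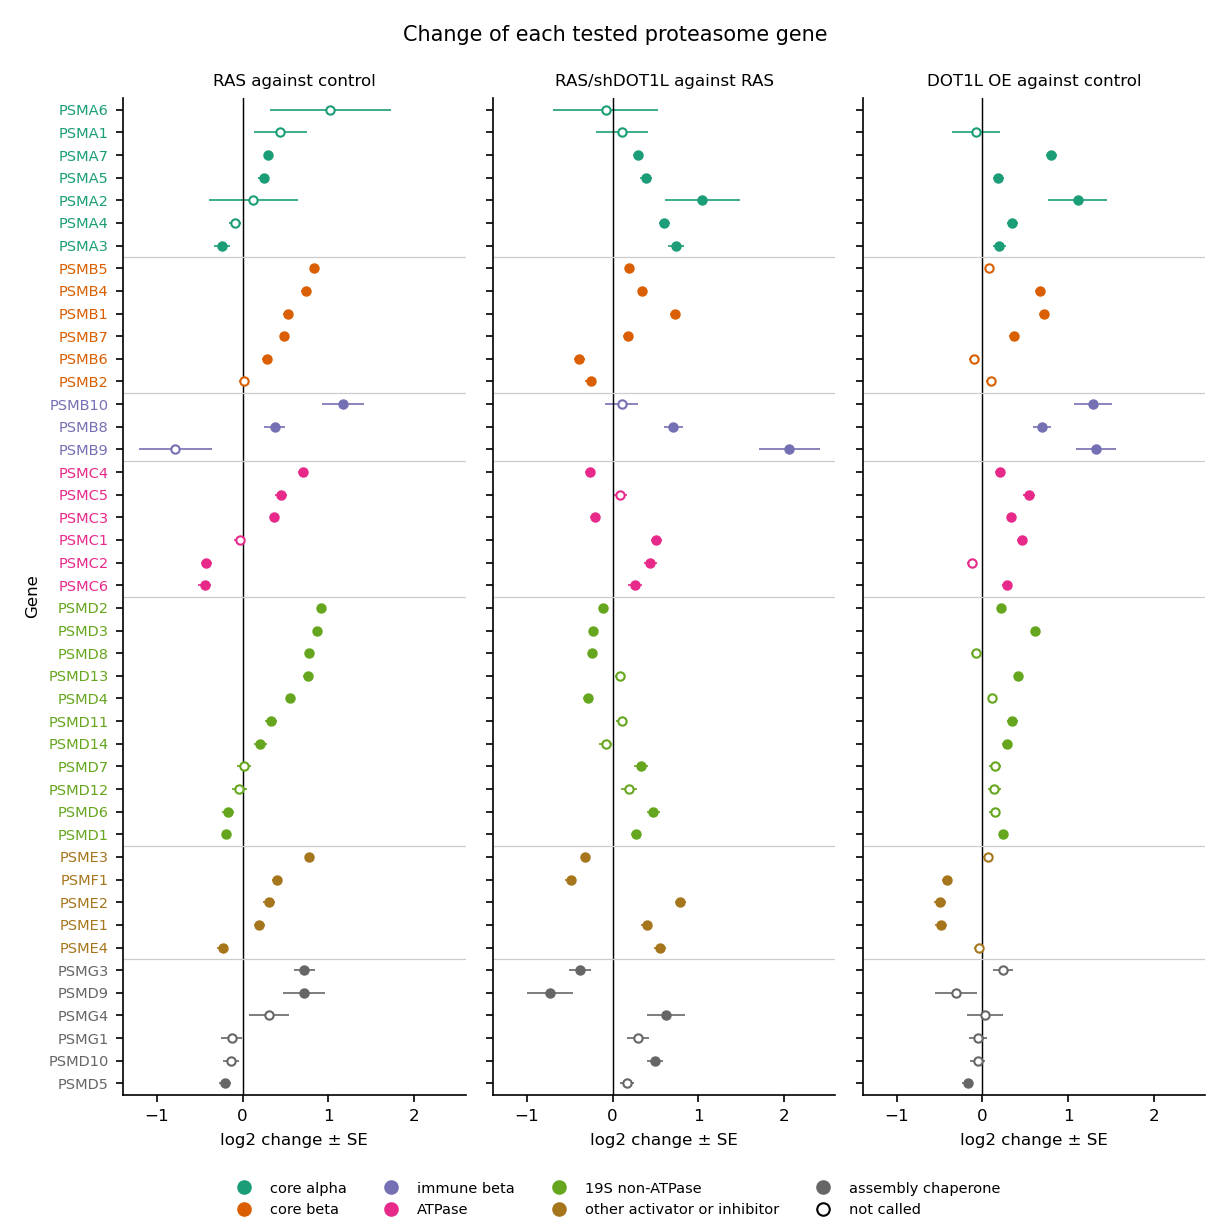
Log2 change with its SE for each tested proteasome gene in 3 comparisons, coloured by class, with filled points for genes called at an adjusted p under 0.05 and open points for the rest. In RAS against control 25 points are filled on the right of 0 and 7 on the left, and in DOT1L OE against control PSME1, PSME2, PSMF1 and PSMD5 are the filled points on the left. PSMA1, PSMA2 and PSMA6, with few counts, have the widest bars among the alpha genes.

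Assembly chaperones, which guide the rings together, showed no common direction. In RAS, 2 of 6 were higher and 1 lower (33.3% and 16.7%, beside 31.9% and 32% of all genes). In RAS/shDOT1L against RAS 2 were higher and 2 lower (33.3% and 33.3%, beside 26.3% and 26.4%). In DOT1L OE 0 were higher and 1 lower (0% and 16.7%, beside 29.9% and 29.9%). The share that rose in RAS was near that of all genes. PSMG3, a chaperone of the alpha ring, had 16.3, 19.95 and 19.1 CPM in control, 20.01, 21.7 and 23.3 in DOT1L OE, 31.8, 27.3 and 31.9 in RAS and 21.7, 22.8 and 24.5 in RAS/shDOT1L. It rose by 0.72 ± 0.12 in RAS (adjusted p = 6.06e-06) and fell by 0.38 with the knockdown (SE 0.13, adjusted p = 0.0107), and with the GC offset these changes were 0.25 (adjusted p = 0.0802) and −0.096 (adjusted p = 0.565). PSMD10, a chaperone of the base also known as gankyrin, rose by 0.50 ± 0.09 with the knockdown (adjusted p = 4.13e-05), which with the GC offset was 0.21 (adjusted p = 0.0637). PSMD5 fell by 0.20 in RAS (adjusted p = 0.0158) but was higher by 0.25 with the GC offset (adjusted p = 0.00431).

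Direction in RAS went with base composition. The 7 genes that fell had transcript GC contents of 36.4% to 45.0%, with a median of 40.7%, while the 25 that rose had a median of 52.0% and ran from 37.9% to 61.7%. Across the 44 tested members, Spearman's rho between GC content and log2 change was 0.64 (Pearson's r 0.64) as fitted and −0.16 (r −0.17) with the GC offset. Across 13236 tested genes with a GC content, rho was 0.50. In RAS/shDOT1L against RAS it was −0.36 as fitted and 0.15 with the offset, and −0.38 over all genes. Genes are not independent replicates, and the points share their libraries. The offset was fitted over the tested genes of these same libraries, so the loss of a trend with it is built in. A technical trend and one that comes with RAS would both be removed and cannot be told apart. Of the 32 members called in RAS, 17 stayed higher with the offset, 12 lost their call and 3 turned from lower to higher, PSMA3, PSMC6 and PSMD5. Libraries also differed in their share of mitochondrial counts, 3.64% to 3.87% in RAS and 2.12% to 2.54% in the other groups, and its part was not tested.

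**Figure D5:**
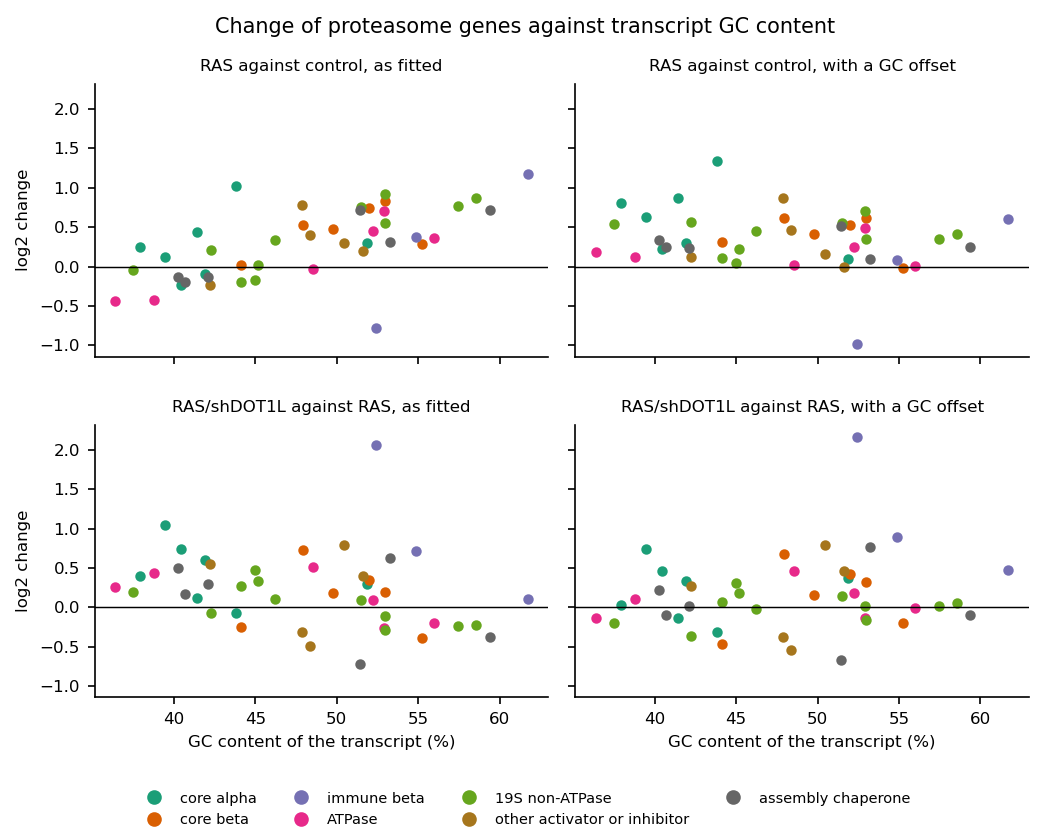
Log2 change of each tested proteasome gene against the GC content of its transcript, as fitted (left) and with an offset for GC content (right), for RAS against control (top) and RAS/shDOT1L against RAS (bottom), coloured by class. The rising trend at the top left, with rho 0.64 over 44 genes, is gone at the top right, where rho is −0.16. The offset is built to remove such a trend over the tested genes, whatever its cause.

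Of 13 genes for proteasome proteins with other names, 3 rose and 4 fell in RAS (23.1% and 30.8%, beside 31.9% and 32% of all genes) and 4 rose and 3 fell with the knockdown (30.8% and 23.1%, beside 26.3% and 26.4%), shares near those of all genes. In DOT1L OE 6 rose and 1 fell (46.2% and 7.69%, beside 29.9% and 29.9%). ADRM1, a ubiquitin receptor of the 19S, rose by 0.97 ± 0.08 in RAS (adjusted p = 5.19e-12), whereas USP14, a deubiquitinase bound to the 19S, fell by 0.67 (SE 0.06, adjusted p = 5.87e-11). FBXO7, which binds the inhibitor PSMF1, fell by 1.80 with the knockdown (SE 0.10, adjusted p = 2.28e-16), from 116 to 119.7 CPM in RAS to 25.9 to 41.0 CPM in RAS/shDOT1L. POMP, the maturation factor of the core, changed by 0.02 ± 0.06 in RAS (adjusted p = 0.831).

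Of 10 genes of the NFE2L1 pathway, 7 rose and 3 fell in RAS (70% and 30%, beside 31.9% and 32% of all genes), 2 rose and 6 fell with the knockdown (20% and 60%, beside 26.3% and 26.4%), and 6 rose and 1 fell in DOT1L OE (60% and 10%, beside 29.9% and 29.9%). NFE2L1 itself rose by 0.22 ± 0.05 in RAS (adjusted p = 0.000217) and fell by 0.83 with the knockdown (SE 0.06, adjusted p = 1.70e-14). The part of NFE2L1 in the changes of proteasome genes was not tested. Its partner MAFF rose by 1.596 ± 0.06 in RAS (adjusted p = 5.71e-22). NFE2L2, a related factor, fell by 0.35 in RAS (SE 0.09, adjusted p = 0.000697) and rose by 0.64 ± 0.06 in DOT1L OE (adjusted p = 3.01e-10). The 10 genes include NFE2L2 and also NFE2L3, a further related factor, and NGLY1. Mean levels of NFE2L3 were 46.6 CPM in control, 22.1 in RAS and 44.3 in RAS/shDOT1L. Those of NGLY1 were 12.5, 8.86 and 17.8 CPM in the same order. Among 10 ubiquitin and shuttle genes 6 rose and 1 fell in RAS (60% and 10%, beside 31.9% and 32%), with the ubiquitin-activating enzyme UBA1 up by 0.54 ± 0.03 (adjusted p = 1.64e-15) and the shuttle RAD23B down, having dropped by 1.15 (SE 0.05, adjusted p = 1.60e-20).

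Of 12 genes of antigen presentation, whose products display peptides cut by the proteasome, 3 rose and 6 fell in RAS/shDOT1L against RAS (25% and 50%, beside 26.3% and 26.4% of all genes). In RAS 6 rose and 3 fell (50% and 25%, beside 31.9% and 32%), and in DOT1L OE 5 rose and 4 fell (41.7% and 33.3%, beside 29.9% and 29.9%). With the knockdown TAP1, a subunit of the peptide transporter, fell by 0.39 (SE 0.09, adjusted p = 0.000309), TAPBP fell by 0.84 (SE 0.06, adjusted p = 1.64e-14) and B2M, the light chain of class I molecules, rose by 0.58 ± 0.04 (adjusted p = 4.68e-14). IRF1, a transcription factor induced by interferon, rose by 1.21 ± 0.08 in RAS (adjusted p = 2.68e-15) and 1.42 ± 0.07 in DOT1L OE (adjusted p = 1.81e-17), and fell by 0.40 with the knockdown (SE 0.08, adjusted p = 4.94e-05).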

How the data were processed

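The authors aligned the reads and deposited raw counts per gene for each library. STAR 2.6.1 and DESeq2 2 stand in the processing notes of the submitters. The members, gene lists and tests were chosen with earlier results of these data known. CPM is a count divided by the library total over genes that passed the filter and by its TMM factor over all 12 libraries, scaled to 1e6, and levels per kb divide by the length of the Ensembl canonical transcript in GENCODE on GRCh38. Each comparison was fitted on the counts of its own 6 libraries with the quasi-likelihood test of edgeR 4.0.16 (R 4.3.3), after filterByExpr and TMM scaling, with p-values adjusted by Benjamini-Hochberg over all genes tested. A second call used glmTreat with a fold of 1.5. Values are given by library for the immune and constitutive catalytic genes, PSMC4 and, in each comparison, the 3 called members with the largest rise and the 3 with the largest fall, if the higher group averaged at least 10 CPM and the groups did not overlap. Other members are given by class counts and examples, and other pathway genes by list counts, their smallest p-values and NFE2L1, NFE2L2, POMP, TAP1 and IRF1. The GC offset was fitted in 20 bins of transcript GC content, from each library's median deviation over the genes tested. Replicate numbers did not pair the libraries. DESeq2 1.42.0 was an alternative. The scripts were tested on simulated data. A planned comparison of protein sequences was not run.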

Additional observations from a re-analysis of the deposited data

How the results depend on the processing

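With library totals as the only scaling, 16 members were higher and 14 lower in RAS against control, and 4 were lower in RAS/shDOT1L against control. With the GC offset 0 were lower in RAS. Among results given by library or as examples, that offset turned the direction in RAS for PSMB6 (−0.023), PSMC6 (0.18), PSMC2 (0.12), PSMA3 (0.22), PSMD5 (0.25) and PSME4 (0.12), in RAS/shDOT1L against RAS for PSMD8 (0.020), in DOT1L OE for PSMB5 (−0.0079) and in RAS/shDOT1L against control for PSMC6 (0.040), all log2 changes. Over all called members the sign turned for 9 in RAS, also for PSMD1 (0.11), PSMD6 (0.047) and PSME1 (−0.011), and for 4 in RAS/shDOT1L against RAS, also for PSMC6 (−0.14), PSMD2 (0.011) and PSMD3 (0.053). With library totals 9 called members lost their call in RAS, and with the offset 12 did so in each of these comparisons. The cause was not tested. With the length of all exons in place of the canonical transcript, the median level of the 30 core and 19S genes in control went from 52.2 to 20.4 CPM per kb. With 1 library left out, the members higher numbered 24 to 25 in RAS, 20 to 22 in RAS/shDOT1L against RAS, 20 to 25 in DOT1L OE and 28 to 31 in RAS/shDOT1L against control, and those lower 5 to 7, 11 to 12, 3 to 5 and 1 to 2. With the replicate number as a block the counts were 25 and 7, 21 and 12, 22 and 4, and 31 and 2, though same-numbered libraries share only a number, with correlations of −0.019 to 0.027. Over 107 results for named members and 1605 alternatives, 923 with another setting and 613 with a library left out kept direction and call. Apart from the catalytic genes and PSMC4, these members were chosen among those already called, so a high number kept was partly fixed by that choice. The lowest members, PSMA6 with 2 to 35 counts and PSMA2 with 19 to 72, are limited by depth.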
